A study of Drosophila melanogaster with 18 samples.

Results

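The genes described here encode immune peptides induced by the Toll pathway of *Drosophila melanogaster*, together with 1 further infection-induced gene. They were picked out of the table by their CG or CR numbers: *Drs* (CG10810), *Mtk* (CG8175), *Def* (CG1385), the Daisho genes *Dso1* (CG15231) and *Dso2* (CG33990), the Baramicin A genes *BaraA1* (CG33470) and *BaraA2* (CG18279), and *IBIN* (CR44404). All 8 were found among the 16438 genes of the table of counts and all 8 were among the 12460 genes tested, although *Def* reached the minimum average of 15 counts only through its highest group, since it averaged 17.1 counts over the 18 libraries and 11.2 over the 15 libraries outside the early Dutch group.

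The data are counts from RNA sequencing of dissected fat bodies of female larvae and prepupae from a population of the Netherlands (Dutch, NL) and a population of Zambia (ZI). Each population was sampled as early wandering larvae, in which dyed food was still visible in the gut, as late wandering larvae with a cleared gut, and as white prepupae, with 3 libraries in each of the 6 groups. A library pooled 3 fat bodies from each of 12 Dutch or 10 Zambian isofemale strains, so the 3 libraries of a group hold the same strains and their spread does not cover the variation among strains. The labels name no infection, wounding, genetic modification or drug in any group, and all larvae were raised on dyed medium at controlled density.

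In flies, recognition of fungal or Gram-positive bacterial wall components starts a protease cascade in the hemolymph that cleaves the cytokine Spätzle, which binds the receptor Toll. Toll signals through Myd88, tube and pelle to the inhibitor cactus, whose degradation frees the NF-κB factors Dif and dorsal to enter the nucleus of fat body cells and induce peptides that are secreted into the hemolymph. A parallel branch, the Imd pathway, acts through the NF-κB factor Relish and induces diptericins, attacins and cecropins. Drosomycin, encoded by *Drs*, is an antifungal peptide and the classical readout of Toll. Metchnikowin, encoded by *Mtk*, responds to both pathways, as does the defensin encoded by *Def*, a peptide against Gram-positive bacteria. The Daisho peptides and Baramicin A, a precursor cut into several peptides, act against fungi and depend on Toll.

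*Drs* lies on chromosome arm 3L at 3369556 to 3369942 (plus strand, BDGP6 assembly) as a gene of 1 exon. The other genes lie on arm 2R. *Mtk* (15408846 to 15409113, plus strand) and *Def* (10054178 to 10054576, minus strand) have 1 exon each and sit within the bounds of *Stacl* and *magu*, respectively, without sharing an exon with them. *Dso1* (20868496 to 20869321, minus strand, 3 exons) and *Dso2* (20870392 to 20870678, plus strand, 2 exons) are neighbours on opposite strands. *BaraA2* (13407011 to 13408358) and *BaraA1* (13411739 to 13413085) are copies of 5 exons each on the plus strand. *IBIN* (17671068 to 17671295, plus strand, 1 exon) carries the CR number of a noncoding gene in the table and is protein-coding in the Ensembl annotation. Exons of *BaraA1* and *BaraA2* overlap exons of *CG30059* and *CG18278*, and whether strand was used in counting is not stated. The levels of these neighbours were low, with 4.71 to 10.9 normalized CPM (counts scaled to a common library total) for *CG30059* and 3.05 to 8.06 CPM for *CG18278*. *Stacl*, on the same strand as *Mtk*, had 5.91 to 13.8 CPM, and *magu*, on the strand opposite to *Def*, had 4.25 to 25.2 CPM. *Mtk* itself had 3.00 to 39.7 CPM and *Def* 0.0985 to 3.08 CPM. Whether reads of these host genes entered the counts of *Mtk* and *Def* was not tested. The counts of *BaraA1* were 0.53 to 0.637 times those of *BaraA2* in all 18 libraries, and since pairs mapping to more than one gene had been discarded, the values of these near-identical copies are uncertain and cannot be read as separate measurements, although each row is listed and counted below as the table gives it.

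The libraries held 14998610 to 37250385 counts. Fat body markers such as storage proteins made up 262151 to 582230 CPM, whereas the 8 hemocyte markers summed to 53.1 to 262 CPM, the 7 muscle markers to 51.1 to 232 CPM, the 6 gut markers to 11.0 to 91.0 CPM and the 7 salivary gland markers to 5.54 to 34.5 CPM, and no marker was at 0 in all libraries. Sums of the muscle markers did not overlap between late Dutch (137 to 223 CPM) and late Zambian (63.6 to 79.4 CPM) libraries, nor between prepupal Dutch (61.7 to 183 CPM) and prepupal Zambian (51.1 to 57.8 CPM) ones, and further sums lay apart for hemocyte markers in prepupae (Dutch 63.3 to 88.0 CPM, Zambian 53.1 to 60.3 CPM), salivary gland markers in late larvae (Dutch 9.49 to 15.8 CPM, Zambian 18.6 to 23.8 CPM), trachea markers in early larvae (Dutch 10.9 to 14.1 CPM, Zambian 14.5 to 16.0 CPM) and epidermis markers in prepupae (Dutch 3.93 to 4.79 CPM, Zambian 4.96 to 10.0 CPM). The part of these markers in the differences below was not tested. In pooled tissue, fewer expressing cells and less RNA per cell cannot be told apart. The 8 genes together took 0.0188% to 0.0305% of the counts of early Dutch libraries and 0.157% to 0.188% of those of early Zambian libraries, which did not overlap. Values below are CPM after TMM normalization unless stated, log2 fold changes above 0 stand for higher Dutch levels or for higher levels at the later stage, and genes were called at an adjusted p under 0.05 in edgeR's quasi-likelihood test over all 12460 genes.

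*Drs* was lower in the Dutch population at every stage and was the member with the smallest spread between replicates. At the early stage it had 105, 156 and 85.1 CPM in the Dutch and 672, 537 and 756 CPM in the Zambian libraries. At the late stage the Dutch libraries had 365, 293 and 372 CPM and the Zambian ones 1428, 915 and 966 CPM. In prepupae the values were 421, 516 and 436 CPM against 1150, 1306 and 907 CPM. The populations did not overlap at any stage, and the lowest Zambian group mean, 655 ± 111 CPM (SD, n = 3) in early larvae, was above the highest Dutch group mean, 458 ± 51.2 CPM (SD, n = 3) in prepupae. The log2 fold change by edgeR was -2.50 in early larvae (SE 0.22, adjusted p = 2.08e-07), -1.68 in late larvae (SE 0.22, adjusted p = 2.48e-05) and -1.29 in prepupae (SE 0.21, adjusted p = 0.000554), which corresponds to Dutch levels that were 5.67-fold, 3.22-fold and 2.45-fold lower. These calls were kept under each of the 26 alternatives tried.

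**Figure D1:**
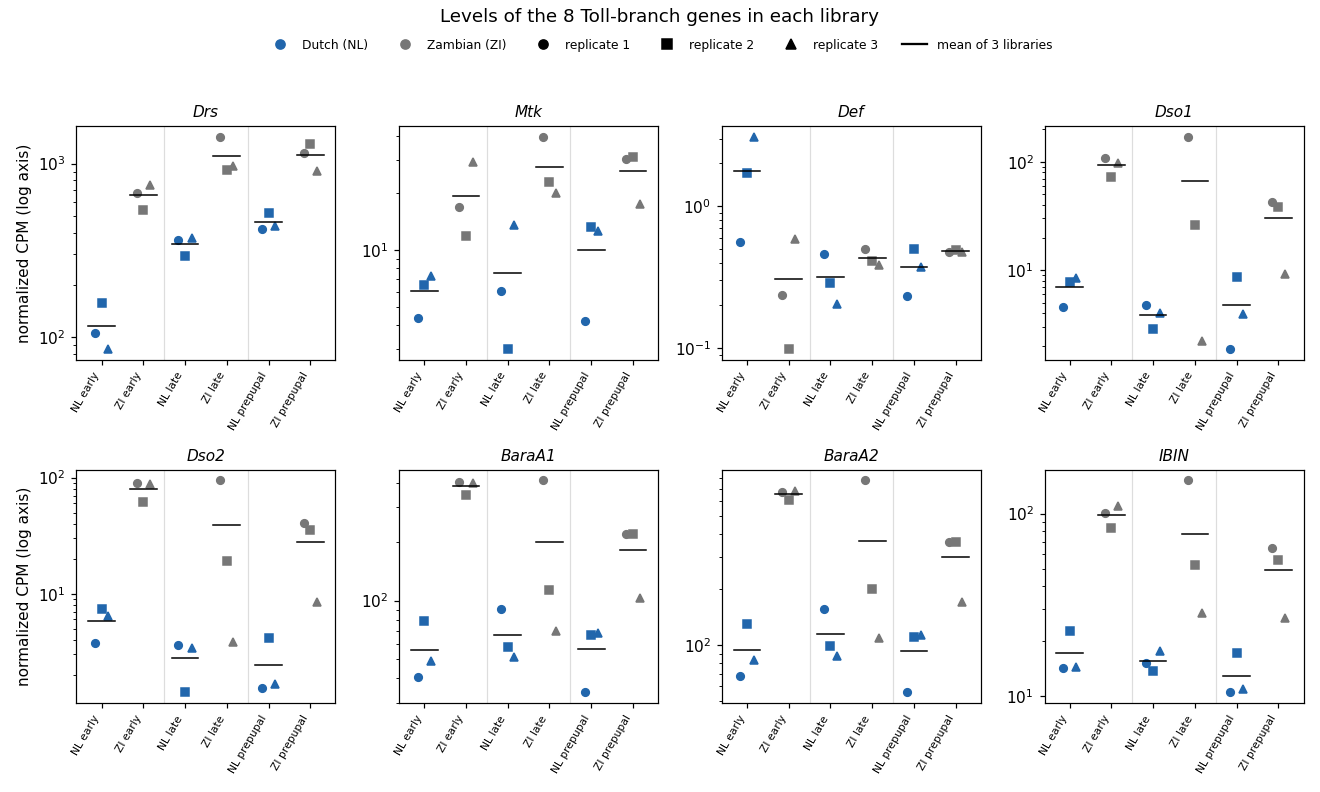
Normalized CPM (log axis, own scale in each panel) of the 8 genes in the 18 libraries, grouped by stage with the Dutch (blue) beside the Zambian (grey) population. Symbols mark replicates and lines the mean of 3 libraries. The 3 early Zambian libraries lie above the 3 early Dutch ones for every gene but *Def*, and the late Zambian libraries spread widely for *Dso1*, *Dso2*, *BaraA1*, *BaraA2* and *IBIN*.

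*Drs* also rose during development in both populations. From early to late larvae its log2 fold change was 1.57 (SE 0.22, adjusted p = 8.83e-06, edgeR) for Dutch and 0.75 (SE 0.21, adjusted p = 0.00803, edgeR) for Zambian larvae, and from early larvae to prepupae it was 1.99 (SE 0.22, adjusted p = 1.99e-07, edgeR) and 0.78 (SE 0.21, adjusted p = 0.00524, edgeR). The Dutch increase to the prepupal stage exceeded the Zambian one by 1.21 on the log2 scale (SE 0.30, adjusted p = 0.0466, edgeR), and the difference between the increases to the late stage was 0.82 (SE 0.30, adjusted p = 0.0778, edgeR), which did not pass. The difference in the increase to prepupae was near the threshold: it had an adjusted p of 0.0505 to 0.151 without any 1 of 13 libraries, which were early Dutch replicate 1 or 3, late Dutch replicate 2, each of the prepupal Dutch libraries, each of the early Zambian libraries, late Zambian replicate 3 and each of the prepupal Zambian libraries. The Zambian increase to the late stage was 0.52 (adjusted p = 0.063, edgeR) without late Zambian replicate 1.

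*Mtk* had low levels, and it was lower in Dutch than in Zambian libraries. The early values were 4.35, 6.56 and 7.28 CPM in the Dutch and 16.8, 11.9 and 29.3 CPM in the Zambian population. The late values were 6.08, 3.00 and 13.6 CPM against 39.7, 23.0 and 20.1 CPM, and the prepupal values 4.19, 13.3 and 12.5 CPM against 30.4, 31.1 and 17.6 CPM. The populations were apart at each stage, although the early Zambian and prepupal Dutch libraries overlapped. *Mtk* was called at the early (log2 fold change -1.66, SE 0.47, adjusted p = 0.0311) and late (-1.88, SE 0.46, adjusted p = 0.00621) stages in edgeR, but not in prepupae (-1.41, SE 0.45, adjusted p = 0.0883). The early call was lost without early Dutch replicate 1, 2 or 3 or early Zambian replicate 1 or 3 (adjusted p = 0.0503 to 0.17, edgeR), and the late value was -2.62 without late Dutch replicate 3.

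The Daisho genes, which encode short antifungal peptides, had the largest fold changes of the 8 genes between the populations at each stage. *Dso1* had 4.61, 7.82 and 8.39 CPM in early Dutch and 109, 72.8 and 96.4 CPM in early Zambian libraries. Its late values were 4.73, 2.85 and 4.01 CPM in the Dutch and 170, 25.9 and 2.24 CPM in the Zambian population, so the lowest late Zambian library, replicate 3, was below all late Dutch ones. Its prepupal values were 1.88, 8.60 and 3.96 CPM against 42.7, 38.3 and 9.24 CPM, and the populations were apart at this stage. *Dso1* was called at the early (log2 fold change -3.73, SE 0.89, adjusted p = 0.00987) and late (-4.10, SE 0.92, adjusted p = 0.00361) stages, but not in prepupae (-2.73, SE 0.89, adjusted p = 0.0965), in edgeR. The early call was lost without early Dutch replicate 1 (adjusted p = 0.072) or 2 (adjusted p = 0.0556), and the late call without any other stage in the fit (adjusted p = 0.0591). Without late Zambian replicate 1 the late value was -1.86 (adjusted p = 0.0434).

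*Dso2* followed *Dso1* closely, with 3.80, 7.37 and 6.44 CPM in early Dutch and 88.9, 62.2 and 87.4 CPM in early Zambian libraries. In late larvae it had 3.59, 1.41 and 3.39 CPM against 94.6, 19.0 and 3.84 CPM, which just did not overlap, and in prepupae 1.55, 4.14 and 1.66 CPM against 40.3, 35.5 and 8.48 CPM. *Dso2* was lower in the Dutch population in early larvae (log2 fold change -3.76, SE 0.76, adjusted p = 0.00255), late larvae (-3.82, SE 0.78, adjusted p = 0.00185) and prepupae (-3.63, SE 0.81, adjusted p = 0.00884) by edgeR, which corresponds to levels that were 13.5-fold, 14.2-fold and 12.4-fold lower. The late value was -2.03 (adjusted p = 0.0161) without late Zambian replicate 1, and the prepupal call was lost without prepupal Dutch replicate 1 (adjusted p = 0.0673) or 3 (adjusted p = 0.0576).

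The Baramicin A genes differed less between the populations than the Daisho genes. They had higher CPM, which does not correct for gene length, and the order per length, given further on, differed. *BaraA2* had 68.0, 131 and 83.1 CPM in early Dutch and 678, 607 and 682 CPM in early Zambian libraries, and its copy *BaraA1* had 40.8, 78.2 and 49.1 CPM against 404, 349 and 402 CPM. In late larvae *BaraA2* had 156, 99.2 and 87.3 CPM in the Dutch and 779, 202 and 110 CPM in the Zambian population, in which replicate 3 overlapped the Dutch range. In prepupae it had 55.4, 110 and 113 CPM against 362, 362 and 172 CPM, which were apart. For *BaraA2*, the log2 fold change by edgeR was -2.80 in early larvae (SE 0.51, adjusted p = 0.000854), -1.67 in late larvae (SE 0.49, adjusted p = 0.0171) and -1.69 in prepupae (SE 0.49, adjusted p = 0.0522), and for *BaraA1* it was -2.78 (adjusted p = 0.000564), -1.58 (adjusted p = 0.0176) and -1.69 (adjusted p = 0.0384). The prepupal values of the copies thus lay on either side of the threshold with the same size of difference.

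The late calls of the Baramicin A genes were lost with 1 library left out. Without late Zambian replicate 1 the late log2 fold change was -0.46 (adjusted p = 0.284) for *BaraA1* and -0.45 (adjusted p = 0.309) for *BaraA2* in edgeR. Both late calls were also lost without late Dutch replicate 2 or 3 (adjusted p = 0.0605 to 0.0706) and when the late libraries were fitted on their own (adjusted p = 0.109 for *BaraA1* and 0.112 for *BaraA2*). The prepupal call of *BaraA1* was lost without any one of prepupal Dutch replicates 1 to 3, prepupal Zambian replicates 1 and 2, early Dutch replicates 1 and 3 and early Zambian replicates 2 and 3 (adjusted p = 0.0525 to 0.215), and also with upper-quartile factors (adjusted p = 0.0595) or TMM factors from well-expressed genes (adjusted p = 0.0562). The early calls of both genes were kept under each alternative.

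*IBIN*, a gene named for its induction by infection, differed between the populations in the same direction as the antifungal peptides. It had 14.3, 22.9 and 14.5 CPM in early Dutch and 100.3, 83.7 and 110.3 CPM in early Zambian libraries. In late larvae the values were 15.1, 13.8 and 17.7 CPM against 152, 52.5 and 28.4 CPM, and in prepupae 10.5, 17.2 and 11.0 CPM against 64.7, 55.5 and 27.0 CPM. No Zambian library overlapped the Dutch ones of its stage. The log2 fold change was -2.51 (SE 0.43, adjusted p = 0.000484), -2.32 (SE 0.42, adjusted p = 0.000756) and -1.94 (SE 0.42, adjusted p = 0.00751) from early larvae to prepupae in edgeR. Without late Zambian replicate 1 the late value was -1.38 (adjusted p = 0.00321), and the prepupal call was lost without prepupal Dutch replicate 1 (adjusted p = 0.0555).

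*Def* was the exception in direction, at counts so low that single libraries decide its values. Since it reached the minimum count only through the early Dutch group, its values against that group are a description, and those of a fit without any filter are given beside them. Early Dutch libraries had 13, 38 and 89 counts of *Def* (0.555, 1.71 and 3.08 CPM) and early Zambian libraries 8, 3 and 14 (0.236, 0.0985 and 0.585 CPM), so the groups overlapped slightly. In the other groups the counts were 13, 10 and 6 in late Dutch, 8, 8 and 13 in prepupal Dutch, 17, 11 and 13 in late Zambian and 16, 10 and 18 in prepupal Zambian libraries. *Def* had a log2 fold change of 2.61 in early larvae (SE 0.54, adjusted p = 0.00306 in edgeR, or 0.00186 without a filter), where 4.53% of all genes were called higher in the Dutch population, and did not pass at the late (-0.45, SE 0.58, adjusted p = 0.569) or prepupal (-0.45, SE 0.59, adjusted p = 0.878) stage in edgeR. The early value was 1.94 (adjusted p = 0.0335) without early Dutch replicate 3 and 3.37 (adjusted p = 0.00194) without early Zambian replicate 3. In the 3 early Dutch libraries, in the same order as the counts above, the gut markers summed to 21.6, 18.4 and 91.0 CPM and the Imd-branch peptides to 221, 664 and 487 CPM. The gut markers also reached 84.4 CPM in a late Dutch library, a group with 6 to 13 counts of *Def*. The part of these lists in the result was not tested.

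The Dutch log2 fold change of *Def* was -2.49 from early to late larvae (SE 0.53, adjusted p = 0.000781 in edgeR, or 0.000414 without a filter) and -2.35 from early larvae to prepupae (SE 0.53, adjusted p = 0.00097 in edgeR, or 0.000593 without a filter). These values were -1.68 and -1.56 without early Dutch replicate 3. In the Zambian population the changes were 0.56 (adjusted p = 0.505, edgeR) and 0.71 (adjusted p = 0.403, edgeR). The difference between the populations in the change to the late stage was -3.06 (SE 0.80, adjusted p = 0.0315 in edgeR, or 0.0278 without a filter). It was lost with upper-quartile factors (adjusted p = 0.0602), with TMM factors from well-expressed genes (adjusted p = 0.0519) and without early Dutch replicate 2, late Dutch replicate 2 or 3, early Zambian replicate 1 or 2 or late Zambian replicate 2 or 3 (adjusted p = 0.0561 to 0.0871, edgeR). It was -2.35 without early Dutch replicate 3 and -3.79 without early Zambian replicate 3, where it still passed.

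Of the 8 genes, the Baramicin A copies counted as 2, 7 were lower in early Dutch larvae, where 7.53% of all genes tested were called and 3.00% were called as lower. *Def*, with its value above 0, is left out of this count. At the late stage 7 were called lower, beside 27.8% of all genes called and 14.1% called lower, and in prepupae 4 (*Drs*, *Dso2*, *BaraA1* and *IBIN*), beside 4.75% and 2.09%. For the mean of the 3 stages the same 7 as at the early stage were called lower, beside 18.9% and 9.39%, and *Def* had a value of 0.57 (adjusted p = 0.264, edgeR). The median log2 fold change of the 8 genes was -2.65, -1.78 and -1.69 at the early, late and prepupal stages, and that of all genes tested 0.03, 0.04 and 0.00. All 3 Zambian libraries were above all 3 Dutch libraries for 7 of the 8 genes in early larvae (11.3% of all genes), for *Drs*, *Mtk*, *Dso2* and *IBIN* in late larvae (20.6% of all genes) and for 7 of the 8 in prepupae (10.2% of all genes). In prepupae, leaving out Dutch replicate 1 left 1 call (*Drs*) and leaving out Dutch replicate 3 left 2, and there were 7 when the prepupal libraries were fitted on their own. In late larvae 4 were called in a fit of that stage.

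**Figure D2:**
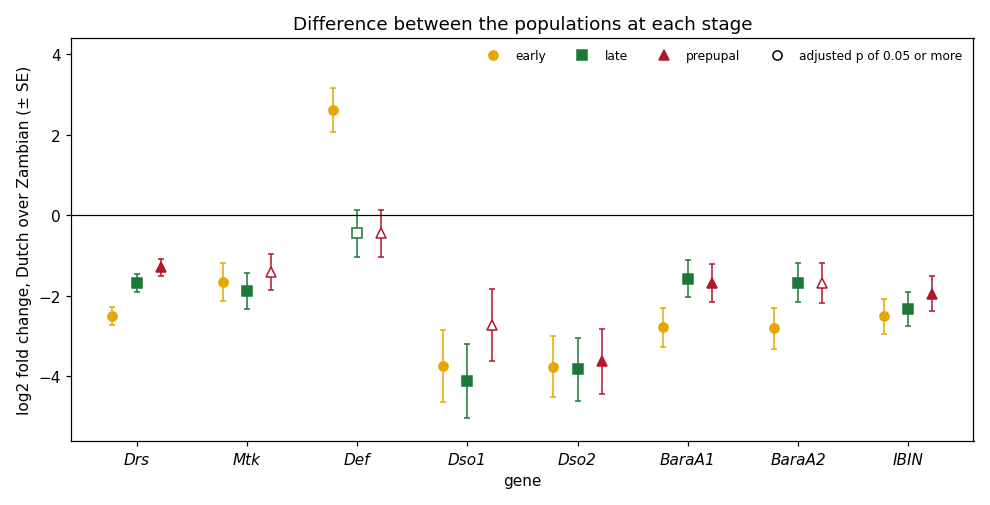
Log2 fold change between the populations (Dutch over Zambian, bars ± SE from edgeR) of the 8 genes at the early (circles), late (squares) and prepupal (triangles) stages, with open symbols where the adjusted p was 0.05 or more. Every value of the 7 genes other than *Def* is below 0, from -4.10 for *Dso1* in late larvae to -1.29 for *Drs* in prepupae, and *Def* is at 2.61 in early larvae.

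Between stages, few of the 8 genes changed past the threshold. Apart from *Def*, described above, *Drs* alone was called, as higher, from early to late Dutch larvae (41.6% of all genes called) and from early Dutch larvae to prepupae (45.5% of all genes called), and in the Zambian population *Drs* alone was called over the same intervals (35.6% and 41.2% of all genes called). None of the 8 was called from the late to the prepupal stage in either population by edgeR, at an unadjusted p under 0.05 or by DESeq2, where edgeR called 15.1% of all genes for the Dutch and 12.3% for the Zambian population. The change to prepupae differed between the populations for *Drs* (1.48% of all genes called). This call was near the threshold and was lost without single libraries, as given above. For the course over all stages *Drs* did not pass (adjusted p = 0.0549, edgeR). Of the 8 genes, edgeR called *Def* alone for the change to the late stage (7.87% of all genes called), and DESeq2 called 0. *Def* was also called for the course over all stages (3.48% of all genes called). That call was lost under both of the scaling alternatives named for *Def* above and without any one of 10 libraries (adjusted p = 0.0558 to 0.111). Both calls of *Def* are a description, since they rest on the early Dutch group through which it reached the minimum count. *Dso1*, *Dso2*, *BaraA1*, *BaraA2* and *IBIN* had values below 0 in the Zambian population from early larvae to prepupae, such as -1.63 for *Dso1* (adjusted p = 0.119), -1.51 for *Dso2* (adjusted p = 0.0851) and -1.09 for *BaraA1* (adjusted p = 0.0629), none of which passed in edgeR.

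Late Zambian replicate 1 was the highest library of its group for all 8 genes, so fits without it are a description. Over the 25 alternatives, the change from early to late Zambian larvae ranged up to 0.08 for *Dso1*, 0.06 for *IBIN* and -0.48 for *Dso2*. The genes *Dso1*, *Dso2*, *BaraA1*, *BaraA2* and *IBIN* passed when late Zambian replicate 1 was left out. From early to late Zambian larvae *Dso1* then had a log2 fold change of -2.73 (adjusted p = 0.00454), *Dso2* of -2.81 (adjusted p = 0.000941), *BaraA1* of -2.07 (adjusted p = 0.000152), *BaraA2* of -2.07 (adjusted p = 0.000212) and *IBIN* of -1.28 (adjusted p = 0.00317) in edgeR, against -0.49, -1.02, -0.95, -0.85 and -0.34 with all libraries. From early Zambian larvae to prepupae they passed as well without late Zambian replicate 1 (adjusted p = 0.005 to 0.027) or 3 (adjusted p = 0.0155 to 0.0262), although neither library enters that comparison except through the shared estimate of the spread. The difference between the populations in the change to the late stage was then 2.32 (adjusted p = 0.00655) for *BaraA1*, 2.35 (adjusted p = 0.00703) for *BaraA2* and 1.05 (adjusted p = 0.0259) for *Drs*.

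The late Zambian libraries differed from each other more than those of any other group in 5 of the 8 genes. Replicate 1 was the highest of the 3 for all 8 genes and replicate 3 the lowest for 7, and the highest library was 76.0-fold above the lowest for *Dso1*, 24.6-fold for *Dso2*, 7.11-fold for *BaraA2*, 5.91-fold for *BaraA1* and 5.35-fold for *IBIN*. For *Drs* and *Mtk* these ratios were 1.56 and 1.97. The Bomanins, Toll-induced secreted peptides described further on, moved with them and summed to 1365, 220 and 69.1 CPM in late Zambian replicates 1, 2 and 3. Hemocyte markers summed to 135, 134 and 107 CPM and fat body markers to 340665, 441475 and 405032 CPM in the same libraries, which was within a range of 1.26-fold for the hemocyte markers. The other marker lists ranged from 1.23-fold for the ovary to 1.66-fold for the gut and 2.06-fold for the epidermis and cuticle markers. Their part was not tested. Prepupal Zambian replicate 3 was the lowest of its group for all 8 genes, as were early Zambian replicate 2 and prepupal Dutch replicate 1.

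**Figure D3:**
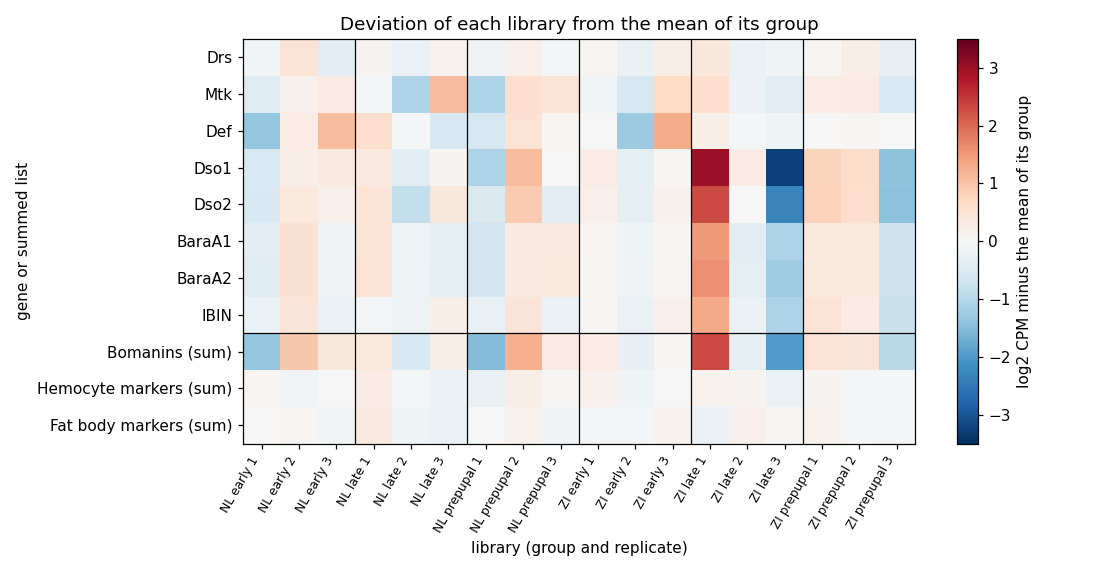
Deviation of the log2 CPM of each library from the mean of its group (colour scale, log2 units) for the 8 genes and for the summed Bomanins, hemocyte markers and fat body markers. *Dso1*, *Dso2*, *BaraA1*, *BaraA2*, *IBIN* and the Bomanins are high together in late Zambian replicate 1 and low together in late Zambian replicate 3. In these libraries the hemocyte and fat body sums, the only marker lists shown, stay near 0.

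Within groups, *Dso1*, *Dso2*, *BaraA1*, *BaraA2* and *IBIN* deviated together. Over the 18 libraries, which share populations, stages and pools of strains, the correlation of their deviations from the group means of log2 CPM was 0.88 to 0.998 over 10 pairs of genes and 0.89 to 0.92 with the summed Bomanins, with the highest value for the copies *BaraA1* and *BaraA2*. The deviations of *Drs* correlated with those of the same 5 genes at 0.55 to 0.76, those of *Mtk* at 0.51 to 0.61 and those of *Def* at 0.23 to 0.35. The same 5 genes correlated at 0.42 to 0.60 with the summed hemocyte markers, at -0.52 to -0.44 with the ovary markers, at 0.21 to 0.41 with the trachea markers, at 0.16 to 0.33 with the muscle markers and at -0.10 to -0.01 with the fat body markers. These are descriptions without a test. The biological coefficient of variation that edgeR estimated between replicates was 0.186 for *Drs* and 0.342 to 0.659 for the other 7 genes, beside a median of 0.163 over all genes.

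The genes whose log2 CPM was most like that of a member over the 18 libraries were often Bomanins. *BomBc2* had the highest correlation with *Dso1* (r = 0.977) and *Dso2* (r = 0.980) and was among the closest 3 for *BaraA1*, *BaraA2* and *IBIN*, with *BomS1* next for *Dso2* (r = 0.973) and *CG6788* for *Dso1* (r = 0.963). *CG4757* (r = 0.956 and 0.957) was closest to *BaraA1* and *BaraA2*, and *BomS2* (r = 0.953) to *IBIN*. *Mtk* was most like *BomBc1* (r = 0.878), *BomS4* (r = 0.863) and *Bbd* (r = 0.855). *Drs* was instead closest to *CG30154* (r = 0.961), *hdly* (r = 0.948), *CG6357* (r = 0.947), *CG10764* (r = 0.946) and *Svip* (r = 0.935), and *Def* to *CecA2* (r = 0.871), which encodes a cecropin, *asRNA:CR43889* (r = 0.823) and *CG10332* (r = 0.793). These values include differences among the group means. For deviations from those means, r with *Drs* was 0.89, 0.43, 0.62, 0.61 and 0.22 in the order given. That of *BomBc2* was 0.95 with both *Dso1* and *Dso2*.

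The Drosomycin family has 6 further genes, *Drsl1* to *Drsl6*, and *Drsl5* differed from *Drs* in direction. *Drsl5* was higher in the Dutch population, with 9.77, 14.1 and 20.1 CPM in early Dutch and 3.93, 2.56 and 2.51 CPM in early Zambian libraries. In late larvae it had 114, 218 and 225 CPM against 100.5, 64.6 and 76.7 CPM, and in prepupae 803, 751 and 532 CPM against 228, 214 and 151 CPM. The populations did not overlap at any stage, and the log2 fold change by edgeR was 2.28 in early larvae (adjusted p = 3.29e-05), 1.20 in late larvae (adjusted p = 0.00362) and 1.82 in prepupae (adjusted p = 0.000212). From early larvae to prepupae *Drsl5* rose by 5.56 on the log2 scale in Dutch and by 6.03 in Zambian animals (adjusted p = 3.43e-11 and 2.66e-11, edgeR). *Drsl2*, at 0.07 to 3.72 CPM in the group means, did not differ between the populations past the threshold (adjusted p = 0.437 to 0.83), and *Drsl1*, *Drsl3*, *Drsl4* and *Drsl6*, with 0 to 10 counts per library, were below the minimum average count.

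**Figure D4:**
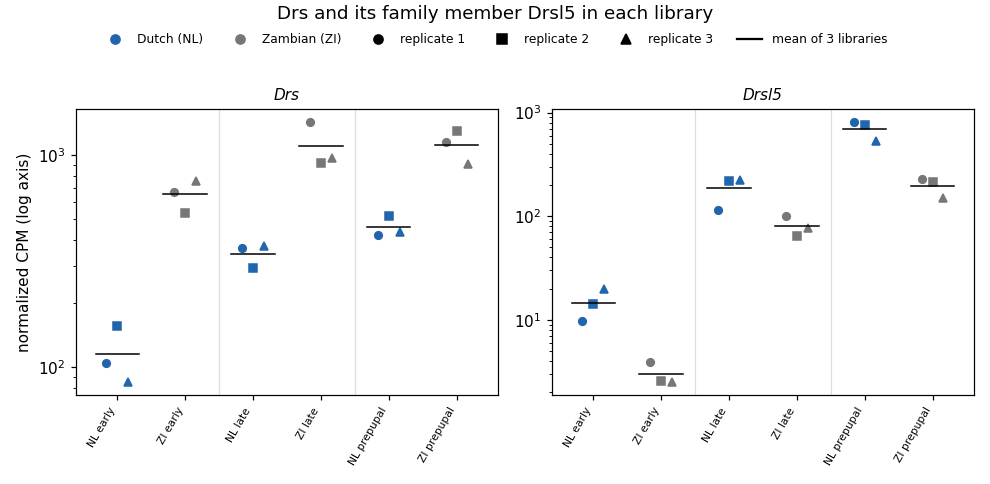
Normalized CPM (log axis, own scale in each panel) of *Drs* and *Drsl5* in the 18 libraries, with the Dutch population in blue, the Zambian in grey and lines for the mean of 3 libraries. All Zambian libraries are above the Dutch ones of the same stage for *Drs*, and all Dutch libraries are above the Zambian ones for *Drsl5*, while both genes are at their lowest in early larvae.

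Among the other Toll effectors, the 12 Bomanins showed the same direction as the 7 genes. All 12 were lower in the Dutch population in early larvae (3.00% of all genes), 10 in late larvae (14.1% of all genes) and 7 in prepupae (2.09% of all genes), with medians of -4.26, -4.24 and -3.04 on the log2 scale, and none was higher. Without late Zambian replicate 1 the late median was -2.52, with 10 called. *BomBc1* had 1.73 ± 0.763 CPM (SD, n = 3) in early Dutch and 112 ± 18.4 CPM (SD, n = 3) in early Zambian libraries, a log2 fold change of -6.00 (adjusted p = 0.000355, edgeR). *BomS1* had -5.59 in late larvae (adjusted p = 0.00116, edgeR) and -4.78 in prepupae (adjusted p = 0.00751, edgeR). *BomS3*, the Bomanin with the highest mean level, stood at 15.4 ± 11.1 CPM (SD, n = 3) in early Dutch and at 253 ± 37.0 CPM (SD, n = 3) in early Zambian larvae. The summed Bomanins were 14.3, 69.9 and 48.1 CPM in early Dutch and 1192, 821 and 1036 CPM in early Zambian libraries. In prepupae 2 Bomanins were called when Dutch replicate 1 was left out and 4 without prepupal Dutch replicate 3 or prepupal Zambian replicate 1 or 2.

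The 19 components of the Toll pathway upstream of these peptides differed far less. In early larvae, where 7.53% of all genes were called, 17 of the 19 did not pass. *Hayan*, a protease of the cascade, was higher in the early Dutch population (log2 fold change 0.48, adjusted p = 0.014, edgeR) and *nec*, a serpin that restrains it, was lower (-0.70, adjusted p = 0.00106, edgeR). In late larvae, where 27.8% of all genes were called and 14.1% were called lower, 9 were lower in the Dutch population and none was higher, among them the kinase *pll* (-0.82, adjusted p = 0.000626), the protease *grass* (-0.76, adjusted p = 0.000429), the inhibitor *cact* (-0.63, adjusted p = 0.00401) and *nec* (-0.63, adjusted p = 0.00187), with a median of -0.40. This count depended on the scaling, since 5 were lower and 1 was higher with TMM factors from well-expressed genes and 4 were lower and 2 were higher with upper-quartile factors, and it was 5 without late Dutch replicate 2 or late Zambian replicate 2. In prepupae, where 4.75% of all genes were called, the recognition protein *PGRP-SA* was higher (0.85, adjusted p = 0.011) and *grass* was lower (-0.47, adjusted p = 0.0378). The receptor *Tl* had -0.61 (adjusted p = 0.0189) in late larvae and did not pass at the other stages, the ligand *spz* and the factors *Dif* and *dl* did not pass at any stage, and *GNBP3*, a sensor of fungal walls and the component with the highest mean level, had a late value of -0.27 (adjusted p = 0.0821).

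The Imd branch did not share the direction of the 7 genes in early larvae. Of 12 Imd-branch peptides, 5 were higher in early Dutch larvae (4.53% of all genes) and none was lower, with a median of 1.69: *CecA2* (log2 fold change 3.95, adjusted p = 0.00368), *CecC* (3.28, adjusted p = 0.00112), *edin* (2.44, adjusted p = 0.00197), *AttC* (2.21, adjusted p = 8.08e-05) and *CecB* (1.96, adjusted p = 0.0495). The summed peptides of the populations overlapped in early larvae, with 221 to 664 CPM in Dutch and 149 to 266 CPM in Zambian libraries. *AttC*, which encodes an attacin and had the highest mean level of the list, stood at 189 ± 44.2 CPM (SD, n = 3) in early Dutch and 41.0 ± 24.4 CPM (SD, n = 3) in early Zambian libraries. In late larvae *AttB* (-2.07, adjusted p = 0.00189), *AttA* (-1.74, adjusted p = 0.0166) and *edin* (-1.64, adjusted p = 0.0125) were lower in the Dutch population, beside 14.1% of all genes called lower. The late median of the 12 peptides was -0.70. Their late sums lay apart, with 130 to 192 CPM in Dutch and 246 to 332 CPM in Zambian libraries. In prepupae, where 4.75% of all genes were called, *AttC* was higher (1.30, adjusted p = 0.0174). Of 16 components of the Imd pathway, 4 were higher in early Dutch larvae (*PGRP-LF*, *PGRP-LB*, *IKKbeta* and *PGRP-LE*, by 0.70 to 1.30) and 4 were lower in late Dutch larvae (*Rel*, *imd*, *key* and *Tak1*, by 0.37 to 0.92), beside 7.53% of all genes called in early and 27.8% in late larvae. With upper-quartile factors or TMM factors from well-expressed genes, 2 of the 16 were lower and 2 were higher in late larvae.

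Per length, in TPM (counts divided by gene length and scaled to the same total in each library) over the tested genes, *Drs* was the most abundant of the 8 genes in every group, with group means of 337 TPM in early Dutch larvae to 4699 TPM in prepupal Zambian libraries. In early Zambian larvae the next in order were *BaraA2* (752 ± 50.1 TPM, SD, n = 3), *IBIN* (571 ± 57.4 TPM, SD, n = 3), *Dso2* (473 ± 84.9 TPM, SD, n = 3) and *BaraA1* (442 ± 36.3 TPM, SD, n = 3), of which the last pair lay within their spread. *Dso1* had 161 ± 33.3 TPM, *Mtk* 94.4 ± 37.5 TPM and *Def* 0.991 ± 0.750 TPM (SD, n = 3) there. In early Dutch larvae the order after *Drs* was *BaraA2* (91.9 ± 26.5 TPM), *IBIN* (85.7 ± 18.5 TPM), *BaraA1* (54.9 ± 15.8 TPM), *Dso2* (30.2 ± 9.35 TPM) and *Mtk* (26.1 ± 7.71 TPM, SD, n = 3 each), with neighbours mostly within their spread. The places of *BaraA1* and *BaraA2* rest on the uncertain split of their counts. Those of *Dso2* and *IBIN* depend on the short lengths used, 223 and 228 bases. *Drs* made up 31.2% to 34.9% of the counts of the 8 genes in early Zambian libraries and 60.2% to 72.9% in prepupal Zambian ones, which did not overlap.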

How the data were processed

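The table deposited by the authors gives raw counts of read pairs for each gene in the 18 libraries, and a length in bases for each gene. The authors mapped paired reads of ribosome-depleted RNA to the FlyBase transcriptome with NextGenMap, dropped ambiguous pairs and added up the transcripts of a gene. Replicates are not pooled in the table. The members and lists were chosen with earlier results of these data known.

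Genes averaging at least 15 counts were kept, as in the study's methods. edgeR 4.0.16 (R 4.3.3) fitted 1 mean per group after TMM normalization, and quasi-likelihood p-values were adjusted by Benjamini-Hochberg over 12460 genes. The SE was taken as the size of the log2 fold change divided by the root of F. CPM are TMM-normalized, log2 CPM used a prior count of 2, and TPM used the deposited lengths. The fit was tested on simulated data. No 2 replicates had equal counts within sampling noise. Alternatives used other scaling factors, DESeq2 1.42.0, other filters, 1 stage alone, a replicate block, or 17 libraries.

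Named genes are the members, the 3 genes (5 for *Drs*) with the highest correlation to each, the Drosomycin family, and from each list up to 4 called genes with the largest difference per stage and the gene with the highest mean count. *Tl*, *spz*, *Dif*, *dl*, *CecB* and the further Imd pathway genes were named after their values were seen. Symbols and positions came from the Ensembl annotation of BDGP6, which matched 16343 genes by identifier. Promoter and protein sequences were not analysed here. Figures used Python 3.11.15 with pandas 2.3.3, numpy 2.4.6 and matplotlib 3.10.9.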

Additional observations from a re-analysis of the deposited data

Results flagged for a closer look

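The change of *Def* from early to late larvae differed between the populations by -3.06 on the log2 scale (adjusted p = 0.0315 by edgeR's quasi-likelihood test), and over all stages the test of different courses gave *Def* an adjusted p of 0.037. Both calls were lost with upper-quartile factors (adjusted p = 0.0602 and 0.0727) and with TMM factors from well-expressed genes (adjusted p = 0.0519 and 0.0627). They rest on 3 to 89 counts per library and on the early Dutch group, through which alone *Def* reached the minimum count, so they are given as a description. Without a filter the adjusted p-values were 0.0278 and 0.0286. The change of *Drs* from early larvae to prepupae differed between the populations by 1.21 on the log2 scale (adjusted p = 0.0466, edgeR). It was lost without some single libraries (adjusted p of up to 0.151, edgeR), with DESeq2's size factors, with edgeR's own filter and with the replicate block. Over all stages *Drs* did not pass (adjusted p = 0.0549, edgeR). The calls named here were the differences in course of the 8 genes past the threshold, beside 7.87% of all genes called for the change to the late stage, 1.48% for the change to prepupae and 3.48% for any stage. No test for single outlying libraries was run in groups of 3. The highest and lowest libraries of a group and the fits without 1 library are given as a description.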

How the results depend on the processing

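Over all comparisons, most of which held no call that could be lost, 2693 values of single members (*Def* included) stayed on their side of the threshold, 69 lost and 55 gained a call, and no called value changed sign. Values that were not called did, for example *BaraA2* from early Dutch larvae to prepupae, which kept its sign in 16 of 25 alternatives. The counts that follow are of calls in either direction and include *Def*, which the early count of genes called lower leaves out. With 17 libraries, the number of the 8 genes called between the populations ranged from 6 to 8 for early larvae, 5 to 7 for late larvae and 1 to 6 for prepupae, from 1 to 5 for the Zambian change from early to late larvae and 1 to 6 to prepupae, and from 0 to 4 (early to late), 0 to 2 (early to prepupal) and 0 to 4 (any stage) for differences in course. For the Zambian change from early larvae to prepupae, where 1 was called, it was 3 without a filter and 2 with edgeR's own filter. The 1 difference in course to prepupae became 0 with DESeq2's size factors and with edgeR's filter, and the 1 to the late stage became 0 with DESeq2. Fits of 1 stage alone called 4 in late larvae and 7 in prepupae. Replicate numbers did not pair the libraries: over 45 pairs of same-numbered libraries the correlation of deviations was -0.39 to 0.43 (15 over 0.1), and 4 of 18 libraries correlated best with their own number. With the replicate block, 5 were called for the Zambian change from early larvae to prepupae and 0 for the difference in course to prepupae, and the prepupal call of *BaraA1* was lost (-1.56, adjusted p = 0.0561).

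Counts over all genes moved as well. The 3463 genes called in late larvae became 1658 in a fit of that stage alone and 1771 to 1825 without late Dutch replicate 2 or late Zambian replicate 2 or 3, and the 592 in prepupae became 1017 alone and 377 without prepupal Dutch replicate 1. For differences in course to the late stage, 980 became 563 with upper-quartile factors and 1610 with DESeq2, which also called 178 from the late to the prepupal stage, where edgeR called 0 (2309 at an unadjusted p under 0.05), and 1069 in place of 433 over all stages. The late calls between the populations were higher in the Dutch for 49.4% and for 73.4% with upper-quartile and 70.1% with well-expressed factors, which moved the median of all genes from 0.04 to 0.25 and 0.22. For changes to the late stage, that share went from 44.2% to 61.1% and 59.3% in the Dutch, and for Zambian changes from the late stage to prepupae from 29.5% to 58.1% and 42.3%. Toll pathway genes called in early larvae were 2, and 6 in a fit of that stage alone. Counts of 3 to 89 limit *Def*.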
